A study of Homo sapiens with 12 samples.

Results

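The libraries labelled S545A and deleted GAG (∆GAG) made up 6 of the 12 RNA sequencing libraries of HEYA8, an established human ovarian cancer line whose label reads high grade serous. They were chosen by genotype label alone, 3 of each, and every gene in the count table was considered. They are described as stable lines transduced with human betaglycan (BG) in a lentiviral backbone with the red fluorescent protein dTomato, sorted for that colour, and RNA was taken in the resting state in serum-containing RPMI medium with no agent added. In the S545A construct (HS-BG) serine 545 was changed to alanine and serine 534 was kept. In the ∆GAG construct both serines were changed, so the constructs compared differ at serine 534 alone. A sorted line per construct is described, and the counts do not separate the construct from the cells' own TGFBR3. The study calls the 3 libraries of a group biological replicates, but no label ties them to separate cultures, so p-values measure the spread between libraries, which may be technical. The third S545A library has a title reading S545S and the genotype label S545A, and was used as S545A.

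Betaglycan, the product of TGFBR3, is a co-receptor that captures TGF-β family ligands at the cell surface, and its shed ectodomain can hold the same ligands away from the signaling receptors. It is also a proteoglycan: serines of its ectodomain that precede glycine can carry heparan sulfate or chondroitin sulfate, sulfated sugar chains that bind growth factors. TGF-β signaling through SMAD proteins is best known in carcinoma cells for matrix genes such as fibronectin and collagens, and for genes of its own feedback. The stretch of betaglycan that sets the constructs apart is shown as the GRCh38 reference has it, at chr1:91716625-91716690 on the minus strand, in coding sequence of the transcript ENST00000212355.8 (exon 11 of 17, GENCODE release 29). It covers residues 529 to 550, and the capitals mark the codons of serine 534, then serine 545, each followed by a glycine codon.
TGFBR3 residues 529 to 550: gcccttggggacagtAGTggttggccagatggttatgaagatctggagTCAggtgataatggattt
The first codon in capitals is serine in the S545A construct and alanine in the ∆GAG construct, and the second is alanine in both.

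TGFBR3 was not uniform within the libraries labelled ∆GAG. Scaled by TMM (an edgeR factor that evens out library composition) and given in CPM, counts relative to the total of the library, it was 574, 522 and 520 CPM in S545A libraries 1, 2 and 3, and 260, 20.3 and 21.4 CPM in ∆GAG libraries 1, 2 and 3. Libraries labelled control vector, with no betaglycan construct by their label, had 15.9, 259 and 259 CPM. So ∆GAG 1 lay at the level of controls 2 and 3, and ∆GAG 2 and 3 lay near control 1. For libraries 2 and 3 this goes against the labels of both groups, since the controls were above ∆GAG, while library 1 was higher in ∆GAG than in the control. Whether the ∆GAG and control labels were exchanged in some libraries was not tested, and ∆GAG, control and S545A here mean the libraries so labelled. Every S545A library was above every ∆GAG library (log2 fold change 2.42, standard error 1.02, unadjusted p of 0.0354 by edgeR's quasi-likelihood test, exact permutation p of 0.1, the smallest that 3 against 3 allow). The log2 fold change was 4.69 (unadjusted p of 0.000419) without ∆GAG 1, and 1.05 (unadjusted p of 0.339) with ∆GAG 1 as the only ∆GAG library. Which ∆GAG libraries match their label therefore bears on every direction below, and values are given with and without ∆GAG 1.

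The 6 libraries held 20338899 to 29267436 counts. In them 3 counts, about the upper 95% limit for a count of 0, were 0.1025 to 0.147 CPM, which accounts for counting error alone. Libraries 2 and 3 were close to each other in both groups, with a median absolute log2 difference per gene of 0.0708 in S545A and 0.0823 in ∆GAG. ∆GAG 1 differed from ∆GAG 2 and 3 by 0.233 and 0.230, more than any of the 9 pairs made of 1 S545A and 1 ∆GAG library (0.143 to 0.195). S545A 1 differed from S545A 2 and 3 by 0.193 and 0.188. A chi-square of the counts per degree of freedom, near 1 under counting error alone, was 1.4 and 1.99 for libraries 2 and 3 of S545A and ∆GAG. It was 28.7 to 64.6 for pairs with library 1 of the same group. Whether 3 libraries of a group stand for 3 independent cultures was not tested. The labelled cell type was checked on marker genes. PAX8 was present at 193 to 295 CPM with high KRT7, KRT8 and KRT18, but MUC16 and CDH1 were at 0 counts in all 6 libraries. Of 16 epithelial markers, 11 passed the filter on low counts, with a sum of 2470 to 3060 CPM in S545A and 2440 to 3010 CPM in ∆GAG. Of 14 mesenchymal markers, 9 passed, with a sum of 3560 to 3650 CPM in S545A and 3830 to 4850 CPM in ∆GAG, and DCN and LUM were at 0. None of 12 blood and immune markers passed, with sums of at most 0.196 CPM in S545A and 0.317 CPM in ∆GAG, and CD3D, CD3E, FCGR3A, HBA1 and HBB among those at 0. Of 7 endothelial markers, 5 passed, and their sum, carried by CDH5 and TIE1, was 589 to 796 CPM in S545A and 674 to 702 CPM in ∆GAG. In bulk RNA, fewer cells of a kind and less RNA per cell cannot be told apart.

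By its labels, the comparison asks what changes in resting cells when betaglycan can carry a chain at serine 534 alone rather than none. The amount of TGFBR3 RNA differed along with the chain site, with 520 to 574 CPM in S545A and 20.3 to 260 CPM in ∆GAG. The comparison does not separate the chain from this amount, and the part of each in the differences below was not tested. After adjustment over the 16069 genes tested, edgeR called 0 genes at 0.05 (0% called), as did DESeq2 and limma-voom. At an unadjusted p under 0.05, edgeR gave 80 genes higher in S545A (0.498% of genes tested) and 97 lower (0.604%), 177 in all, against 105 by DESeq2 and 176 by limma-voom. A threshold of 0.05 passes a larger share than these 2 together even when no gene differs. The 3 libraries of a group did not overlap those of the other in 421 genes higher in S545A (2.62%) and 390 lower (2.43%). Complete separation of 3 against 3 libraries has a probability of 0.1 when nothing differs, again a larger share than was seen. Neither count therefore exceeds what no difference would give, and the genes named below are a description. In the fit of all libraries and the 6 that each leave out 1 library, 26 genes (0.162%) held an unadjusted p under 0.05. Of these, 14 were higher and 12 lower, and 7 had means under 1 CPM in both groups. Fits without library 2 or 3 of a group still hold the other library of that close pair.

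**Figure D1:**
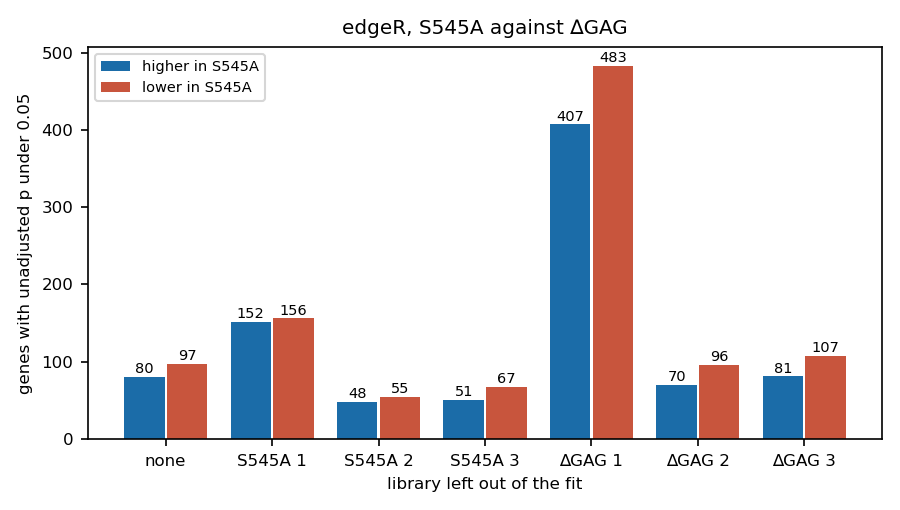
Number of genes (y axis) with an unadjusted p under 0.05 by edgeR, higher (blue) or lower (red) in S545A, in the fit of all libraries and in the 6 fits that each leave out the library named on the x axis. The counts were 80 and 97 with all libraries and 407 and 483 without ∆GAG 1.

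With all libraries, the matrix genes FN1, COL6A3 and COL1A1, the TGF-β carrier LTBP1 and the protease ADAMTS2 were lower in S545A at an unadjusted p under 0.05, and without ∆GAG 1 COL1A1 alone of these 5 was still under it. FN1, which encodes fibronectin (chromosome 2, 215360440 to 215436172, minus strand), was at 651, 494 and 488 CPM in S545A and 1410, 830 and 896 CPM in ∆GAG. The groups did not overlap, and the S545A mean was 544 ± 92.7 CPM (SD, n = 3) against 1050 ± 319 CPM (SD, n = 3). The log2 fold change was -0.94 (standard error 0.332, unadjusted p of 0.0156), and -0.66 (unadjusted p of 0.0779) without ∆GAG 1. Control libraries had 1040, 434 and 437 CPM, so the library numbered 1 was the highest of each of the 3 groups. LTBP1, the latent TGF-β binding protein that anchors stored TGF-β in the matrix (chromosome 2, 32946972 to 33399509, plus strand), was at 17.4, 9.06 and 9.81 CPM in S545A and 29.3, 19.3 and 18.3 CPM in ∆GAG. The groups again did not overlap, and library 1 was again the highest of each. Its log2 fold change was -0.88 (standard error 0.287, unadjusted p of 0.0100), and -0.63 (unadjusted p of 0.054) without ∆GAG 1. Its relatives LTBP2, LTBP3 and LTBP4 had log2 fold changes of -0.02, 0.10 and -0.02 with all libraries.

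COL6A3, a chain of the beaded-filament collagen VI, was at 8.8, 5.78 and 5.43 CPM in S545A and 13.4, 11.2 and 14.2 CPM in ∆GAG, with no overlap (log2 fold change -0.95, standard error 0.423, unadjusted p of 0.0446; -0.93 and 0.0831 without ∆GAG 1). COL1A1, the main chain of fibrillar collagen I, was at 8.57, 9.95 and 9.23 CPM in S545A and 8.48, 16.8 and 17.7 CPM in ∆GAG. Here ∆GAG 1 lay at the S545A level and ∆GAG 2 and 3 above it, and the log2 fold change of -0.63 (unadjusted p of 0.0373) was -0.90 (unadjusted p of 0.00162) without ∆GAG 1. ADAMTS2, which trims the ends of procollagens, was at 1.63, 1.62 and 1.71 CPM in S545A and 3.31, 2.46 and 2.12 CPM in ∆GAG (log2 fold change -0.67, standard error 0.296, unadjusted p of 0.043; -0.47 and 0.172 without ∆GAG 1). Of 35 collagen and matrix genes tested, these collagens and FN1 were the 3 with an unadjusted p under 0.05, all lower in S545A (against 0.604% of all genes), and the median log2 fold change of the list was -0.08 against -0.01 over all genes. Without ∆GAG 1, COL1A1 was the 1 lower (against 3.01% of all genes) and LAMB3 the 1 higher (against 2.53%), with a list median of -0.04. The basement membrane chains COL4A1 (336, 321 and 313 CPM against 309, 297 and 309 CPM) and LAMC1 (383, 422 and 418 CPM against 370, 387 and 408 CPM), and the collagen partner SPARC (353, 381 and 388 CPM against 333, 383 and 374 CPM), had log2 fold changes of 0.08, 0.07 and 0.04 and unadjusted p-values of 0.385 to 0.657. The summed mesenchymal markers, which include FN1 and COL1A1 themselves, moved with this group, and their part in it was not tested.

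**Figure D2:**
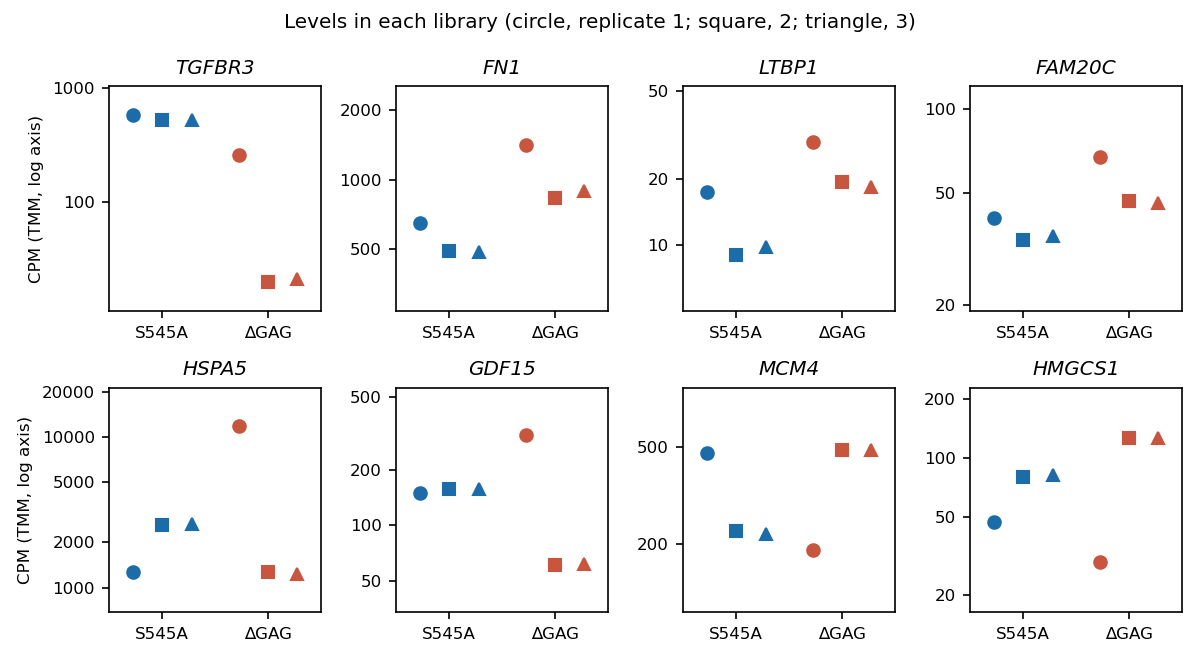
Level of 8 genes in each library, in CPM scaled by TMM on a log axis, for S545A (blue) and ∆GAG (red); circles, squares and triangles are libraries 1, 2 and 3 of each group. FN1, LTBP1 and FAM20C are lower in all S545A than in all ∆GAG libraries, while in HSPA5, GDF15, MCM4 and HMGCS1 the circle of ∆GAG lies far from its square and triangle.

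Genes that kept their direction whichever library was left out were named by a rule on the largest p over the 7 fits, 12 in each direction, without clone-based and antisense names. Of the 12 lower genes 11 stayed under 0.05 in all 7 fits, and of the 12 higher genes 6 did, whereas over all genes 12 lower and 14 higher did. FAM20C, the Golgi kinase that phosphorylates secreted proteins (chromosome 7, 192969 to 260745, plus strand), was at 40.9, 34.2 and 35.2 CPM in S545A and 67.3, 46.9 and 46.3 CPM in ∆GAG. Its log2 fold change was -0.54 (standard error 0.162, unadjusted p of 0.00582), and -0.34 (0.0346) without ∆GAG 1. GAS7, a growth-arrest protein that binds actin (chromosome 17, 9910609 to 10198551, minus strand), was at 2.52, 2.99 and 3.14 CPM against 4.31, 4.46 and 4.34 CPM, with library values close together in both groups (log2 fold change -0.60, standard error 0.169, unadjusted p of 0.00404). LITAF, a membrane protein of late endosomes and lysosomes (chromosome 16, 11547722 to 11636381, minus strand), was at 35.1, 34.3 and 35.8 CPM against 38.7, 45.2 and 43.1 CPM, a small difference with little spread (log2 fold change -0.27, standard error 0.0841, unadjusted p of 0.00729). In these 3 genes the groups did not overlap.

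ENAH, which promotes actin filament growth at the leading edge (chromosome 1, 225486835 to 225653142, minus strand), was at 14.7, 10.1 and 10.2 CPM in S545A and 18.1, 15.6 and 17.5 CPM in ∆GAG (log2 fold change -0.55, standard error 0.18, unadjusted p of 0.0104). TFAP2C, the transcription factor AP-2γ (chromosome 20, 56629302 to 56639283, plus strand), was at 6.67, 8.08 and 6.9 CPM against 8.03, 12.4 and 11.7 CPM, with ∆GAG 1 just inside the S545A range (log2 fold change -0.57, unadjusted p of 0.00466; -0.74 and 0.000162 without ∆GAG 1). GSC, the homeobox factor goosecoid and a classic activin target in embryos, was at 0.62, 0.637 and 0.513 CPM against 0.816, 1.21 and 1.13 CPM, with 13 to 26 counts per library. The remaining 6 lower genes were CMTM1, ARMCX5-GPRASP2, ZNF92, GUCY1A2, STON1 and C14orf132; CMTM1, ARMCX5-GPRASP2 and STON1 share exon sequence with neighbouring or readthrough genes, so their counts are uncertain. C14orf132 had the lowest log2 fold change of the 12, -1.15 (2.52, 2.06 and 1.5 CPM against 3.85, 4.27 and 5.33 CPM), and LITAF the smallest.

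The 12 higher genes were TGFBR3 and 11 of low level. KBTBD7, an adaptor of a cullin ubiquitin ligase (chromosome 13, 41189833 to 41194566, minus strand), was at 7.33, 6.57 and 7.07 CPM in S545A and 5.71, 5.53 and 5.46 CPM in ∆GAG (log2 fold change 0.33, standard error 0.125, unadjusted p of 0.0219). ZNF624, a zinc finger gene, was at 4.61, 5.98 and 5.74 CPM against 3.9, 4.27 and 3.43 CPM (log2 fold change 0.49, unadjusted p of 0.0181). SHF, an adaptor with an SH2 domain, was at 1.67, 2.25 and 2.05 CPM against 1.18, 1.25 and 1.13 CPM (log2 fold change 0.74, unadjusted p of 0.0122), and shares exon sequence with clone-named genes. These groups did not overlap, but no value of the 3 genes was above 7.33 CPM. Of the other 8, XKR9, MFSD2B and C9orf147 were at most 1.16 CPM in every library, and EIF3FP3, HNRNPA3P9, PTP4A2P1, RNU6-762P and RNU6-850P are pseudogenes, whose reads may belong to the genes they copy. Exons of KBTBD7, MFSD2B and C9orf147 overlap those of other genes, so their counts are uncertain as well. In 7 of the 12 the highest count in the 6 libraries was under 40.

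**Figure D3:**
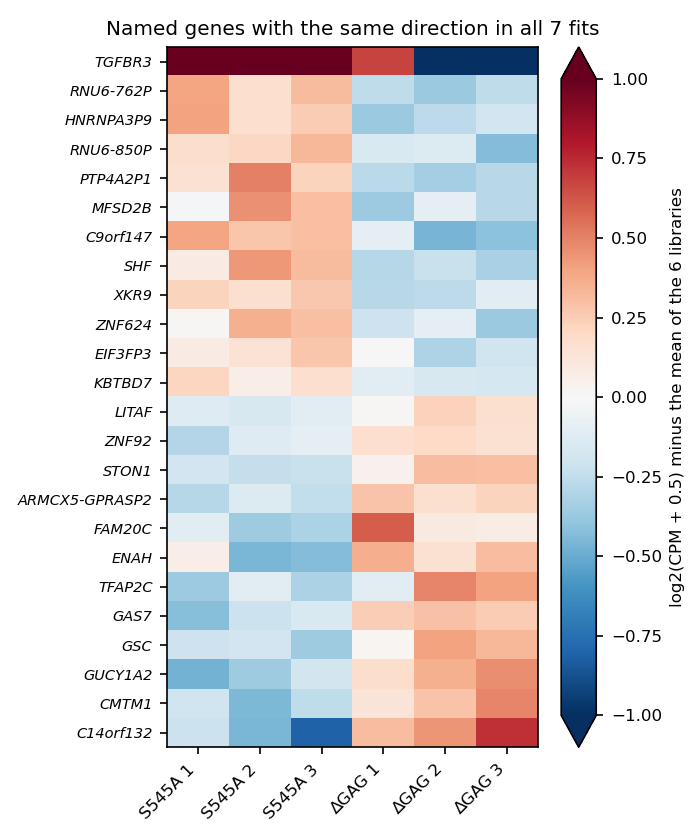
log2(CPM + 0.5) minus the gene's mean over the 6 libraries (colour; the scale ends at ±1, beyond which TGFBR3 lies in 5 libraries) for the 12 higher and 12 lower genes that kept 1 direction in all 7 fits. Of the lower genes, from LITAF to C14orf132, TFAP2C, LITAF, STON1 and GSC are paler in ∆GAG 1 than in ∆GAG 2 and 3. So are CMTM1, GUCY1A2 and C14orf132, and GAS7 slightly. FAM20C, ENAH and ARMCX5-GPRASP2 are darkest in ∆GAG 1.

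With all libraries, most receptor and SMAD genes of the TGF-β pathway differed little. Of 20 receptor, co-receptor and carrier genes tested, TGFBR3 was higher and LTBP1 lower at an unadjusted p under 0.05 (against 0.498% and 0.604% of all genes), and the median log2 fold change was 0.004 against -0.007 over all genes. TGFBR2, the kinase that binds TGF-β first, was at 607, 527 and 525 CPM in S545A and 692, 484 and 498 CPM in ∆GAG (log2 fold change -0.01), and TGFBR1, the kinase it activates, was at 47.6, 44.6 and 46.2 CPM against 40.3, 47.4 and 47.3 CPM (0.04). Both overlapped between groups. None of 15 SMAD and feedback genes passed, with a median of -0.003; SMAD3, which carries the TGF-β signal to DNA, was at 312, 327 and 330 CPM against 309, 321 and 322 CPM, and the inhibitory SMAD7 at 6.78, 6.42 and 6.59 CPM against 7.94, 6.5 and 6.86 CPM. Of 25 target genes tested, FN1 and COL1A1 were the 2 that passed, both lower (against 0.604% of all genes), and the median was -0.02. Without ∆GAG 1 the 2 were COL1A1 and THBS1, both lower (against 3.01% of all genes). THBS1 was at 42.3, 53 and 51.9 CPM against 44.2, 68.8 and 72.5 CPM (log2 fold change -0.53, unadjusted p of 0.00678). Of the receptor list, TGFBR3 was then higher and BMPR1B lower (-0.998, 0.0352), with a median of 0.096 against 0.002 over all genes. No SMAD or feedback gene passed in that fit.

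Of 15 ligands and antagonists tested, none passed with all libraries. Without ∆GAG 1, GDF15, a stress-induced secreted member of the family (chromosome 19, 18374731 to 18389176, plus strand), was higher and FST, the activin trap follistatin, was lower (against 2.53% and 3.01% of all genes). GDF15 was at 149, 158 and 158 CPM in S545A and 311, 60.5 and 61.6 CPM in ∆GAG. ∆GAG 1 lay above the S545A libraries and ∆GAG 2 and 3 below them, and the log2 fold change was 0.10 (unadjusted p of 0.845) with all libraries and 1.35 (standard error 0.205, unadjusted p of 4.55e-05) without ∆GAG 1. PAPPA2, a secreted protease that frees insulin-like growth factors from their binding proteins (chromosome 1, 176463171 to 176845605, plus strand), had the same layout, with 5.47, 5.93 and 5.3 CPM in S545A and 8.57, 1.49 and 1.49 CPM in ∆GAG (log2 fold change 0.53, unadjusted p of 0.369; 1.90 and 0.000169 without ∆GAG 1). In controls, library 1 was instead the lowest of its group in both, with 84.7, 121 and 122 CPM of GDF15 and 1.8, 3.53 and 3.29 CPM of PAPPA2.

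The genes that build, modify or release glycosaminoglycan chains were close in level. Of 35 linker, heparan sulfate and chondroitin sulfate enzymes tested, SULF2, an extracellular enzyme that removes sulfate from heparan sulfate (chromosome 20, 47656348 to 47786616, minus strand), was the 1 that passed (against 0.604% of all genes lower). It was at 39.6, 40.8 and 43 CPM in S545A and 60.7, 50.4 and 50.5 CPM in ∆GAG, with no overlap (log2 fold change -0.39, standard error 0.158, unadjusted p of 0.0297; -0.29 and 0.115 without ∆GAG 1), and its exons overlap those of NCOA3 on the other strand. GLCE, which turns glucuronic into iduronic acid in heparan sulfate, was at 21.2, 21.3 and 19.7 CPM against 21.3, 24.9 and 25.6 CPM (log2 fold change -0.21, unadjusted p of 0.0634; -0.28 and 0.013 without ∆GAG 1). The polymerases EXT1 (293, 373 and 386 CPM against 265, 373 and 390 CPM) and EXT2 (115, 102 and 106 CPM against 112, 105 and 102 CPM) and the chondroitin synthase CHSY1 (43.4, 43 and 42.4 CPM against 42.3, 42.7 and 42.5 CPM) had log2 fold changes of 0.03, 0.02 and 0.01. The list median was -0.03. None of 16 other proteoglycan core proteins passed with all libraries; SDC2 (2.48, 3.58 and 3.11 CPM against 2.86, 5.16 and 5.01 CPM) and GPC2, a syndecan and a glypican, were lower without ∆GAG 1 (against 3.01% of all genes).

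Betaglycan is released by metalloproteases, which TIMP proteins inhibit. Of 37 such genes tested, ADAMTS2 was the 1 that passed (against 0.604% of all genes lower), and the list median was -0.05. TIMP3, the inhibitor that stays bound to matrix, was at 30.1, 35.7 and 39.9 CPM in S545A and 35.5, 51.8 and 50.4 CPM in ∆GAG, with ∆GAG 1 inside the S545A range (log2 fold change -0.38, standard error 0.215, unadjusted p of 0.102, exact permutation p of 0.3). The value was -0.53 (unadjusted p of 0.0331) without ∆GAG 1, and -0.01 (unadjusted p of 0.969) with ∆GAG 1 as the only ∆GAG library. ADAMTS3, which trims procollagens as ADAMTS2 does, had -0.35 (0.127), and -0.59 (0.0029) without ∆GAG 1. ADAMTS17 was at 1.36, 2.01 and 2.08 CPM against 2.54, 0.929 and 0.948 CPM, and ADAM8 at 24.1, 17.8 and 20.4 CPM against 42.5, 13.9 and 14.8 CPM. PRSS36 was at 0.194 to 0.342 CPM against 0.0907 to 0.465 CPM, and all 3 overlapped between groups. Without ∆GAG 1 their log2 fold changes were 0.95 (unadjusted p of 0.0458), 0.54 (0.124) and -0.86 (0.201). Of the 37 genes, ADAMTS17 was then the 1 higher at an unadjusted p under 0.05 (against 2.53% of all genes). TIMP3, ADAMTS3 and RECK (-0.22, 0.0274) were the 3 lower (against 3.01%). The membrane proteases MMP14 (414, 434 and 420 CPM against 528, 438 and 444 CPM), ADAM10 (182, 196 and 197 CPM against 171, 195 and 202 CPM) and ADAM17 (74.9, 80 and 81.7 CPM against 93.6, 77.6 and 82.8 CPM) had unadjusted p-values of 0.384 to 0.838.

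With ∆GAG 1 left out, the ∆GAG group was libraries 2 and 3 alone, whose median absolute log2 difference was 0.0823. The p-values of that fit, here and in all other paragraphs, may therefore measure technical spread. In it, 407 genes were higher (2.53% of genes tested) and 483 lower (3.01%) in S545A at an unadjusted p under 0.05. That made 890 genes in all, with a smallest adjusted p of 0.365 by edgeR. The shares higher and lower together are close to the share passed at 0.05 when no gene differs. Of the 177 genes of the full fit, 104 were among them. In 596 of the 890, ∆GAG 1 lay beyond all S545A libraries on the side opposite to ∆GAG 2 and 3, in 119 on the same side, and in 175 within the S545A range. Over all genes tested, ∆GAG 1 lay above all S545A libraries in 28.9% and below all of them in 29.7%. With ∆GAG 1 as the only ∆GAG library, a fit added after seeing the data in which that library is assumed to vary like the others, 1187 genes had an unadjusted p under 0.05, and of the 890 genes 10 were under it in the same direction and 242 in the opposite direction. That fit gave 1 adjusted p under 0.05, of ZNF804A, a zinc finger gene at 5.7, 5.24 and 4.72 CPM in S545A and 19.8, 5.16 and 5.28 CPM in ∆GAG.

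Genes with the smallest p-values without ∆GAG 1, of which not all are reported here, included cell cycle genes that were lower in S545A. CDKN2C, an inhibitor of the G1 kinases CDK4 and CDK6, was at 9.11, 10.3 and 11.4 CPM in S545A and 4.99, 17.6 and 16.7 CPM in ∆GAG (log2 fold change -0.35, unadjusted p of 0.322; -0.73 and 0.000108 without ∆GAG 1). TK1, which salvages thymidine for DNA synthesis, was at 136, 111 and 106 CPM against 59, 170 and 168 CPM (-0.16, 0.589; -0.52 and 0.000786). In both, the S545A libraries lay between ∆GAG 1 and the other ∆GAG libraries. TENM2, a teneurin of cell adhesion, was at 8.18, 9.41 and 9.94 CPM against 8.39, 15.8 and 16.3 CPM, and SORBS3, the focal adhesion adaptor vinexin, at 42.3, 42 and 43.1 CPM against 38.9, 54.5 and 55.1 CPM, with -0.81 (0.000927) and -0.37 (0.00105) without ∆GAG 1. KATNAL1, a katanin-like microtubule-severing protein, and ANKRD9 had -0.33 (0.000726) and -0.40 (0.00065). Among those higher in S545A were ZNF397, a zinc finger gene whose exons overlap ZSCAN30 (12.5, 12 and 11.9 CPM against 16.4, 7.06 and 8.08 CPM), and GRAMD4 (11.2, 12.7 and 12.3 CPM against 12.8, 8.13 and 8.08 CPM), NATD1, the RNA gene LINC00958 and PSG1. Each had ∆GAG 1 above all S545A libraries and ∆GAG 2 and 3 below them.

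**Figure D4:**
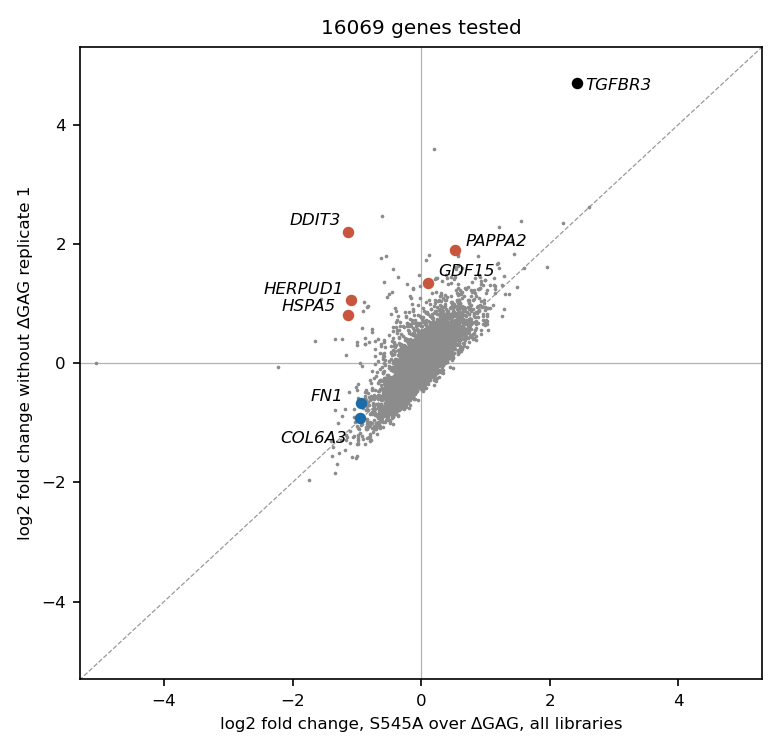
log2 fold change of S545A over ∆GAG with all libraries (x axis) and without ∆GAG 1 (y axis) for the 16069 genes tested; the dashed line is equality. HSPA5, HERPUD1 and DDIT3 lie below 0 with all libraries and above 0 without ∆GAG 1, GDF15 and PAPPA2 move up, and FN1 and COL6A3 stay below 0 on both axes; the point near -5 is COL3A1, which has at most 11 counts.

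In ∆GAG 1 nearly all genes of the unfolded protein response and of its ATF4 arm lay above the S545A libraries. Among the 6 libraries compared, the lists of ribosomal proteins, cytokines, mitosis, replication and sterol synthesis described further on also set that library apart. Controls were not counted in these lists. The endoplasmic reticulum raises chaperones through XBP1 and ATF6 when unfolded proteins gather there, while the kinase PERK, among others, lets ATF4 raise genes of amino acid supply. Of 29 chaperone and unfolded protein response genes tested, 27 were above all S545A libraries in ∆GAG 1 (93.1%, against 28.9% of all genes), and the median ratio of ∆GAG 1 to the mean of ∆GAG 2 and 3 was 2.09. HSPA5, the main chaperone of the compartment, was at 1270, 2600 and 2630 CPM in S545A and 11900, 1260 and 1230 CPM in ∆GAG. HERPUD1, which helps clear misfolded proteins, was at 101, 263 and 256 CPM against 1120, 99.9 and 99.9 CPM, and DNAJB9, a co-chaperone, at 5.74, 12.5 and 11.5 CPM against 45.5, 4.27 and 5.51 CPM. In all 3, ∆GAG 1 was by far the highest of the 6 libraries, and S545A 1 lay at about the level of ∆GAG 2 and 3. In controls 1, 2 and 3, HSPA5 was at 1290, 3880 and 3910 CPM. Control 1 thus lay near ∆GAG 2 and 3, and controls 2 and 3 lay above all S545A libraries. None of the 29 had an unadjusted p under 0.05 with or without ∆GAG 1, but the list median turned from -0.285 to 0.243.

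Of 27 ATF4 genes tested, 24 were above all S545A libraries in ∆GAG 1 (88.9%), and all 27 were above ∆GAG 2 and 3. DDIT3, the stress factor CHOP, was at 8.95, 44.8 and 47.2 CPM in S545A and 208, 6.92 and 7.68 CPM in ∆GAG, and its exons overlap those of MARS. ASNS, which makes asparagine, was at 211, 255 and 252 CPM against 439, 134 and 127 CPM, and PPP1R15A, which restarts translation, at 128, 177 and 186 CPM against 308, 108 and 104 CPM. In these genes ∆GAG 1 was the highest of the 6 libraries and ∆GAG 2 and 3 were the lowest, with S545A between them. Controls 1, 2 and 3 had 5.12, 27.2 and 26.2 CPM of DDIT3 and 99.2, 154 and 145 CPM of PPP1R15A. In both, control 1 was the lowest of its group. None passed with all libraries, where the median was 0.04. Without ∆GAG 1, GDF15, CEBPB, PPP1R15A, DDIT3 and DDIT4 (5 of 27, against 2.53% of all genes) were higher in S545A and the median was 0.47. Within S545A itself, library 1 was below libraries 2 and 3 in 24 of the 27 ATF4 genes and in 20 of the 29 chaperone genes.

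Promoter sequences are shown for 2 genes of these lists, since known response elements can be read in them. They are from RefSeq (GRCh38.p14) and run from 30 bases before to 30 bases after the match, which is in capitals. The first matches the endoplasmic reticulum stress element, CCAAT and CCACG with 9 bases between them, at chr9:125241361-125241439 on the minus strand, and the second the ATF4 and C/EBP element TGATGNAA, at chr7:97872439-97872506 on the minus strand.
HSPA5 promoter: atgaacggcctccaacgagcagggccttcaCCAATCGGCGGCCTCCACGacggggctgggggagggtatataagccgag
ASNS promoter: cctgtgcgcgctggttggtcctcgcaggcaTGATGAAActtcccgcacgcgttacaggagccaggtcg
Searched on both strands from 250 bases before to 50 after the start, the stress element was found in 7 of 27 chaperone genes with a promoter in the table (25.9%) and in 25 of 27305 genes in all (0.0916%), and the ATF4 element in 7 of 22 ATF4 genes (31.8%) and in 1217 genes in all (4.46%). The lists hold known targets of these factors, so the shares describe the lists and not the comparison.

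The genes of DNA replication, mitosis and sterol synthesis showed the reverse layout. Of 36 replication and S phase genes, ∆GAG 1 was below all S545A libraries in 29 (80.6%, against 29.7% of all genes), and its median ratio to ∆GAG 2 and 3 was 0.461. S545A libraries differed here as well: library 1 was above libraries 2 and 3 in 36 of 36 genes, by a median of 1.74-fold. MCM4, a subunit of the replicative helicase, was at 472, 225 and 220 CPM in S545A and 189, 485 and 485 CPM in ∆GAG, so that S545A 1 matched ∆GAG 2 and 3 and the other S545A libraries were nearer to ∆GAG 1. E2F1, the factor that opens S phase (chromosome 20, 33675683 to 33686404, minus strand), was at 46, 22.3 and 23.8 CPM against 16.2, 55 and 55.9 CPM (log2 fold change -0.46, unadjusted p of 0.304; -0.85 and 0.0245 without ∆GAG 1), and RRM2, which makes deoxynucleotides, at 208, 138 and 143 CPM against 114, 261 and 254 CPM (-0.36, 0.28; -0.66 and 0.0305). Controls 1, 2 and 3 had 51.6, 32.9 and 31 CPM of E2F1 and 258, 174 and 178 CPM of RRM2, with control 1 the highest. No gene of the list passed with all libraries. Without ∆GAG 1, 6 of 36 did, all lower (against 3.01% of all genes), and the list median was -0.52.

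The E2F1 and MCM6 promoters are shown for the element TTTGGCGC, to which E2F factors bind, with 30 bases on each side or up to the start of transcription. They lie at chr20:33686386-33686435 and chr2:135876496-135876625, both on the minus strand, and capitals mark the matches.
E2F1 promoter: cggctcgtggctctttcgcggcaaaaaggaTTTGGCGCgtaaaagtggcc
MCM6 promoter: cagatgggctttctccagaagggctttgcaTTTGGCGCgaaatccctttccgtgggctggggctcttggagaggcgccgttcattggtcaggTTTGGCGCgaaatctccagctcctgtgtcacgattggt
TTTGGCGC or TTTCCCGC was found on either strand in 18 of 30 replication genes with a promoter in the table (60%) and in 750 of 27305 genes in all (2.75%). MCM6, another helicase subunit, was at 148, 73 and 71.4 CPM in S545A and 59.6, 153 and 156 CPM in ∆GAG, the same layout as MCM4.

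Of 35 mitosis and G2/M genes, ∆GAG 1 was below all S545A libraries in 34 (97.1%), with a median ratio to ∆GAG 2 and 3 of 0.596. ANLN, a scaffold of the cleavage furrow, was at 333, 343 and 344 CPM in S545A and 204, 444 and 449 CPM in ∆GAG, and KIF11, the motor that separates spindle poles, at 123, 106 and 108 CPM against 74.5, 135 and 140 CPM. In both, S545A lay between ∆GAG 1 and the other ∆GAG libraries and varied little. The list median was -0.01 with all libraries and -0.21 without ∆GAG 1, when 5 of 35 genes were lower (against 3.01% of all genes) and none higher. TTTGAA, the cell cycle element of such promoters, is found on both strands side by side in ANLN, at chr7:36389806-36389861 on the plus strand.
ANLN promoter: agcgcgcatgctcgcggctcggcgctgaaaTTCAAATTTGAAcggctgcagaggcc
It was found on either strand in 21 of 29 mitosis genes (72.4%) and in 4961 genes in all (18.2%), so that a match to these 6 bases is common.

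Of 30 sterol and fatty acid genes, ∆GAG 1 was below all S545A libraries in 25 (83.3%), with a median ratio to ∆GAG 2 and 3 of 0.454. HMGCS1, an early enzyme of cholesterol synthesis, was at 47.1, 79.5 and 81.5 CPM in S545A and 29.3, 126 and 127 CPM in ∆GAG (log2 fold change -0.44, unadjusted p of 0.38; -0.87 and 0.0307 without ∆GAG 1). SQLE, which oxidizes squalene, was at 150, 201 and 203 CPM against 82.2, 268 and 269 CPM. S545A lay between ∆GAG 1 and ∆GAG 2 and 3 in both, and S545A 1 was below S545A 2 and 3 in 27 of the 30. The list median was -0.08 with all libraries and -0.36 without ∆GAG 1, when 7 of 30 genes were lower (against 3.01% of all genes) and none was higher. The sterol element TCACNCCAC was found in 1 of 24 such promoters (4.17%) and in 379 genes in all (1.39%).

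**Figure D5:**
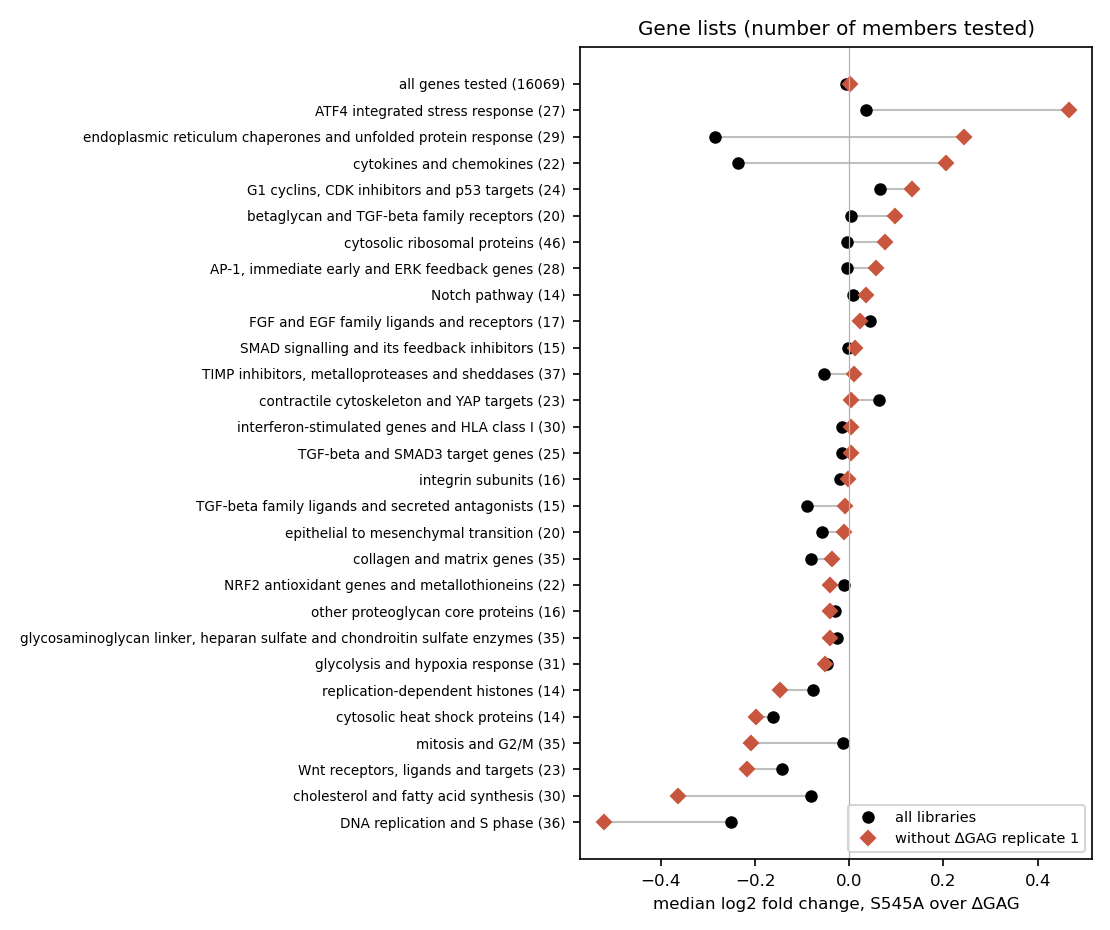
Median log2 fold change of S545A over ∆GAG for the 28 gene lists and for all genes tested, with all libraries (black circles) and without ∆GAG 1 (red diamonds); the number of members tested is in parentheses. The medians of all genes lie at -0.007 and 0.002, the chaperone list moves from -0.285 to 0.243, the ATF4 list from 0.036 to 0.466 and the replication list from -0.251 to -0.522.

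Of 22 cytokine genes tested, ∆GAG 1 was above all S545A libraries in 18 (81.8%). CXCL8, which draws neutrophils, was at 45.9, 11 and 12.3 CPM in S545A and 78.5, 10.2 and 11.2 CPM in ∆GAG, so library 1 was the highest of each group, and IL1A was at 287, 292 and 291 CPM against 416, 250 and 250 CPM. The list median was -0.24 with all libraries and 0.21 without ∆GAG 1, when ICAM1 alone passed, higher in S545A (1 of 22, against 2.53% of all genes). Of 46 cytosolic ribosomal protein genes, ∆GAG 1 was above all S545A libraries in 44 (95.7%), but by little: its median ratio to ∆GAG 2 and 3 was 1.19, and the list median was -0.005, with no gene passing. Of 23 Wnt genes tested, AXIN2, a feedback inhibitor, was lower with all libraries (0.349, 0.343 and 0.171 CPM against 0.272, 1.21 and 0.632 CPM, with 5 to 26 counts; log2 fold change -1.30, unadjusted p of 0.029). FZD1, FZD7 and LGR5, receptors of the pathway, joined it without ∆GAG 1 (4 of 23, against 3.01% of all genes), and the list median was -0.14 with all libraries and -0.22 without ∆GAG 1. Of 28 immediate early and ERK feedback genes none passed with all libraries, and MYC (409, 336 and 328 CPM against 461, 255 and 249 CPM), DUSP6 (59.5, 57.2 and 58.6 CPM against 91.1, 47.3 and 48.2 CPM) and PHLDA1 were higher without ∆GAG 1 (3 of 28, against 2.53% of all genes). DUSP6 is a phosphatase that shuts off ERK and MYC a transcription factor of growth; in all 3, S545A lay between ∆GAG 1 and the other ∆GAG libraries.

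With all libraries, several lists stayed near the median of all genes. Interferon-stimulated and HLA class I genes (30 tested) had a median of -0.02, antioxidant genes and metallothioneins (22) -0.01, glycolysis and hypoxia genes (31) -0.05, integrin subunits (16) -0.02, contractile and YAP target genes (23) 0.06, FGF and EGF family genes (17) 0.04, Notch genes (14) 0.01, G1 and p53 target genes (24) 0.07 and histone genes (14) -0.08, and no member of these lists had an unadjusted p under 0.05 with all libraries. Without ∆GAG 1, PDGFA, ITGA3, BBC3 and NOTCH4 of these lists were higher (against 2.53% of all genes). CDKN2C, NOTCH3 and HIST1H2BK were lower (against 3.01%). The G1 and p53 list then had a median of 0.13 and the histone list -0.15. Of 20 epithelial to mesenchymal transition genes, FN1 was the 1 that passed (against 0.604% of all genes lower), with a list median of -0.06. In the fit without ∆GAG 1, KRT8 and TWIST1 passed instead, both lower (against 3.01%). Cytosolic heat shock genes (14) had a median of -0.16 and none passed; HSPH1, a co-chaperone, was at 501, 294 and 296 CPM in S545A and 360, 450 and 451 CPM in ∆GAG, so that S545A 1 was the highest and S545A 2 and 3 the lowest. Over all 28 lists, 676 different genes were tested, of which 1 was higher (0.148%, against 0.498% of all genes) and 7 were lower (1.04%, against 0.604%) at an unadjusted p under 0.05. Without ∆GAG 1 these counts were 16 (2.37%, against 2.53%) and 37 (5.47%, against 3.01%). The 8 were TGFBR3, FN1, LTBP1, COL1A1, COL6A3, ADAMTS2, SULF2 and AXIN2. Without ∆GAG 1, TGFBR3, COL1A1 and AXIN2 were still under an unadjusted p of 0.05 and the other 5 were not.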

How the data were processed

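Total RNA of HEYA8 cells was made into libraries with a directional kit and sequenced as paired reads. The authors deposited 1 table of raw counts per gene, not normalized, for 56269 genes; the submitters' processing notes name FastQC, Trim Galore 0.4.5, STAR 2.4, SAMtools 1.2 and featureCounts. Those notes also name the mouse build mm10 (GRCm38), whereas 33648 of the 36113 gene symbols shared with GENCODE release 29 have its GRCh38 coordinates, which are used here. The strand setting of the counting is not given in the sources used here, so genes with overlapping exons are uncertain, more so on opposite strands.

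Low-count genes were dropped from the deposited counts by filterByExpr (minimum count 10), TMM scaling was applied and edgeR 4.0.16 was run under R 4.3.3 (quasi-likelihood, robust) in 1 model of all 4 groups and 12 libraries, with 8 residual degrees of freedom and a biological coefficient of variation of 0.163. The p-values were adjusted by Benjamini-Hochberg over the 16069 genes tested. The main fit, DESeq2, limma-voom, the replicate block and the fit of S545A and ∆GAG alone were tested on simulated data. The simulation gave every gene the same biological coefficient of variation, and the other fits were not tested in this way. Permutation tests were exact and two-sided. Listed genes were matched to the count table by symbol, and by an older symbol where the current one was absent.

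The comparison, the 28 gene lists, written by hand, and the rules were chosen with earlier results of these data known. Genes named were TGFBR3, TIMP3 and 4 proteases of the study; the 12 higher and 12 lower genes with the smallest largest p among those under 0.05 that kept 1 sign over the fit of all libraries and the 6 that leave out 1; genes among the 8 higher and 8 lower with the smallest p without ∆GAG 1; and at most 4 list members under 0.05 in either fit, with HSPA5. Clone-based and antisense names were left out of the ranked sets. Other list members were named for their role after their values were seen, and results of some genes are not reported here. Alternatives were DESeq2 1.42.0, limma-voom (limma 3.58.1), other scalings and filters, the 2 groups alone, a replicate block, summed libraries 2 and 3, and each library left out; ∆GAG 1 as the only ∆GAG library was added after seeing the data.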

Additional observations from a re-analysis of the deposited data

How the results depend on the processing

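The count at an unadjusted p under 0.05 (177) was 105 with DESeq2, 469 with no filter on low counts, 110 with at least 10 counts in every library, 1700 with only the 2 groups and without ∆GAG 1, 58 with libraries 2 and 3 summed, 1187 with ∆GAG 1 as the only ∆GAG library, and 103 (without S545A 2) to 890 (without ∆GAG 1) with 1 library left out, 308 without S545A 1. The count at an adjusted p under 0.05 (0) was 3 with the 2 groups and without ∆GAG 1 (GDF15, PAPPA2 and TGFBR3) and 1 with ∆GAG 1 alone. List members under 0.05 (8) numbered 16 with the 2 groups only, 162 with these and without ∆GAG 1, 3 with summed libraries, 94 with ∆GAG 1 alone and 3 to 53 with 1 library left out. Genes under 0.05 in all 7 fits (26) numbered 12 with DESeq2, 60 with no filter, 14 with at least 10 counts, 268 with the 2 groups and without ∆GAG 1 and 4 with summed libraries; this count was not made for the left-out libraries, of which it consists. TGFBR3 (2.42) was 2.44 with no filter (unadjusted p of 0.0732), 1.97 with summed libraries (0.14), 1.05 with ∆GAG 1 alone (0.339) and 1.94 to 4.69 with 1 library left out, when only leaving out ∆GAG 1 kept it under 0.05. TIMP3 (-0.38) was -0.53 to -0.27 with 1 library left out and -0.53 (0.0032) with the 2 groups and without ∆GAG 1. The fit with replicate block gave 203 genes under an unadjusted p of 0.05 and 0 under an adjusted one. Deviations of same-numbered libraries from their group means correlated at 0.023, -0.0073 and 0.038 over all genes tested, so no pairing by number was seen. That check takes the labels as given and cannot exclude an effect shared by library number in some genes.

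Genes that changed sign did so as follows, on the log2 scale. With limma-voom, ADAM8 was 0.0057, PSG1 0.3584, PPP1R15A 0.0957, DDIT3 0.2411, LAMB3 3e-04, PHLDA1 0.0494, ICAM1 0.1333, NDC80 0.0146, KIF11 0.0024 and BBC3 0.0812. With library size only, PSG1 was 0.0091, PHLDA1 0.0133 and BBC3 0.0015, and with the replicate block 0.1218, 0.0326 and 0.0139. With libraries 2 and 3 summed, GDF15 was -0.273, KATNAL1 0.0355, TK1 0.1043, CEBPB -0.1373, UHRF1 0.0497, ANLN 0.0606, NDC80 0.1031, KIF11 0.1223, MAD2L1 0.1038 and ITGA3 -0.0341. With the 2 groups and without ∆GAG 1, ADAM8 was 0.5372, PSG1 1.0978, PPP1R15A 0.6283, DDIT3 2.2017, LAMB3 0.3476, PHLDA1 0.3212, DUSP6 0.2912, ICAM1 0.8527, BBC3 0.4621 and HSPA5 0.8031. With 1 library left out, values ran from -0.4637 to 0.5368 for ADAM8, -0.2653 to 1.3468 for GDF15, -0.0105 to 0.681 for ZNF397, -0.0159 to 0.3078 for LINC00958, -0.3572 to 1.0952 for PSG1, -0.3262 to 0.0607 for KATNAL1, -0.5164 to 0.0559 for TK1, -0.1196 to 0.5838 for CEBPB, -0.3463 to 0.6287 for PPP1R15A, -1.6828 to 2.2031 for DDIT3, -0.2641 to 0.348 for LAMB3, -0.2263 to 0.0235 for KRT8, -0.1517 to 0.3215 for PHLDA1, -0.2535 to 0.2915 for DUSP6, -4e-04 to 0.5078 for MYC, -0.5308 to 0.8524 for ICAM1, -0.392 to 0.0694 for ANLN, -0.2531 to 0.0948 for NDC80, -0.2889 to 0.106 for KIF11, -0.379 to 0.0612 for MAD2L1, -0.2206 to 0.4629 for BBC3, -0.4502 to 0.0836 for EBP, -0.4196 to 0.0276 for MVK and -1.5987 to 0.8035 for HSPA5. With ∆GAG 1 as the only ∆GAG library, ADAMTS17 was -0.4849, ADAMTS3 0.2914, PRSS36 1.4088, GDF15 -1.0069, ZNF397 -0.4335, PAPPA2 -0.6264, NATD1 -0.3239, GRAMD4 -0.0928, LINC00958 -0.2603, CDKN2C 1.04, ANKRD9 0.3978, KATNAL1 0.5473, TK1 0.9994, TENM2 0.1277, SORBS3 0.1271, FST 0.1873, COL1A1 0.1217, THBS1 0.1501, RECK 0.1988, SDC2 0.0909, GPC2 0.0659, CEBPB -0.5654, KRT8 0.3137, TWIST1 0.1842, MYC -0.3685, AXIN2 0.0444, FZD1 0.6307, LGR5 0.2097, FZD7 0.0703, E2F1 0.9234, RRM2 0.5154, UHRF1 0.8259, ANLN 0.7357, NDC80 0.5508, KIF11 0.5936, MAD2L1 0.6393, EBP 0.6998, IDI1 0.9865, NSDHL 0.1736, MVK 0.6253, HIST1H2BK 0.0954, ITGA3 -0.2484, NOTCH4 -0.232 and NOTCH3 1.2985. The causes were not tested. At 20338899 counts or more per library, depth limits the genes near 1 CPM, which include most of those named as higher.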
